A study of Rattus norvegicus with 6 samples.

Results

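The genes described here are the enzymes of branched-chain amino acid and propanoate breakdown in transplanted rat hearts. They were chosen by the pathway assignments in the deposited table, as genes assigned to valine, leucine and isoleucine degradation or to propanoate metabolism and not also to fatty acid degradation, the citrate cycle, pyruvate metabolism or oxidative phosphorylation. Of 22250 genes in the table, 36 met this rule, of which 33 belonged to amino acid degradation, 13 to propanoate metabolism and 10 to both. RNA-Seq had been performed on left ventricular myocardium of 6 donor hearts of male wild-type Sprague-Dawley rats at day 1 after heterotopic transplantation into young recipients, following cold storage in University of Wisconsin solution. The 3 young donors were 10 weeks old (hearts 3, 13 and 15) and the 3 aged donors were 1 year old (hearts 3, 4 and 7). The numbers count within a group, so that young heart 3 and aged heart 3 came from different donors. All hearts had been stored, transplanted and reperfused, and none was an untransplanted control. A graft of this kind is perfused but does not pump for the circulation, and it holds donor tissue together with blood cells of the recipient.

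Leucine, isoleucine and valine share their opening steps. A transaminase (Bcat2 in mitochondria, Bcat1 in the cytosol) moves the amino group away, and the branched-chain keto acid dehydrogenase complex then commits the carbon skeleton to oxidation. The arms diverge after that, with leucine yielding acetyl-CoA and ketone bodies, and isoleucine and valine feeding propionyl-CoA, which is carboxylated and rearranged into succinyl-CoA for the citrate cycle. Heart muscle is rich in mitochondria and expresses nearly the whole route, and it also burns ketone bodies through the enzyme Oxct1.

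The 6 libraries held 21457509 to 24560869 counted reads. Levels are given as CPM, the read count scaled to a common library size, after TMM adjustment. Within the young group, heart 15 stood apart and lay nearer to the aged hearts in many of the values below. Whether the graft, the piece of tissue taken or the label differed cannot be told apart here, and every young mean and fold change includes this heart unless stated. Chi-square per degree of freedom over genes was 496 and 529 between heart 15 and the other young hearts, against 10.2 between young hearts 3 and 13 and 75.0 to 229 among the aged hearts. Cell type markers moved with these differences. The summed level of 10 cardiomyocyte markers was 89763 and 99179 CPM in young hearts 3 and 13, 12153 CPM in young heart 15, 584 CPM in aged heart 3, and 6979 and 6973 CPM in aged hearts 4 and 7. Of these 10 markers, 5 were lower in aged hearts by the limits given below and none was at 0. Tnni3 and Myh7 overlapped between the groups. Myh7 stood at 868, 830 and 1039 CPM in young hearts 3, 13 and 15 and 10.6, 451 and 1843 CPM in aged hearts 3, 4 and 7. Macrophage markers (8 of 8 tested, 4 higher) summed to 324 to 2226 CPM in young and 3549 to 6851 CPM in aged hearts. Lyz2, which did not pass those limits, supplied 81.6 to 1406 CPM in young and 2696 to 4753 CPM in aged hearts. C1qa, C1qb, Mrc1, Csf1r and Cd68 overlapped between the groups. Neutrophil markers (7 of 8 tested, 6 higher) summed to 6.17 to 144 CPM in young and 351 to 1441 CPM in aged hearts. Among them, Fcgr3a and Ngp overlapped. The mitochondrial genome's 13 genes took 11.9% to 21.7% of counts in young and 6.56% to 10.3% in aged hearts. In bulk tissue, fewer cardiomyocytes and less RNA per cardiomyocyte cannot be told apart. The part of these markers in the results was not tested beyond a covariate fit given below, and the cardiomyocyte sum itself was higher in each young heart than in any aged heart.

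Most of the breakdown genes were lower in aged donor hearts. A gene was called where the fold change of aged over young was below 0.67 or above 1.5 with an unadjusted p under 0.05 in edgeR's quasi-likelihood test. Of the 36 genes, 30 had enough reads to be tested, and 23 of these (76.7%) were lower, 0 were higher and 7 did not pass. The higher count was 1 with DESeq2 and 3 with limma-voom, where 15.6% and 26.8% of all genes were called higher. Among all 13784 genes tested in edgeR, 32.2% were called, 19.0% lower and 13.2% higher. The median log2 fold change was -1.90 over the 30 genes, with a range from -3.85 to 1.83, and 0.016 over all genes. No gene of the whole table had a Benjamini-Hochberg (BH) adjusted p under 0.05 in edgeR, while 4731 genes (34.3%) had an unadjusted p under 0.05. The lowest adjusted p among the breakdown genes was 0.0916, a value that several of them share and the lowest of the whole table. Of the 30 genes, 19 were under 0.1, all of them lower and past the limit on fold change. At that adjusted p, 12.2% of all genes were called lower and 6.49% higher. DESeq2's Wald test on the same counts put 23 of the 30 under an adjusted p of 0.05, with 3592 of all genes, and limma-voom with quality weights 27, with 8416 of all genes. The mean level of the cardiomyocyte markers was then added to the edgeR model as a covariate. With it, 3 genes remained lower (Aox3, Aox1 and Hmgcll1) and the median was -0.55. Each of the 3 had a BH-adjusted p of 0.854 in that fit, where 2.76% of all genes were called lower and 2.34% higher.

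**Figure D1:**
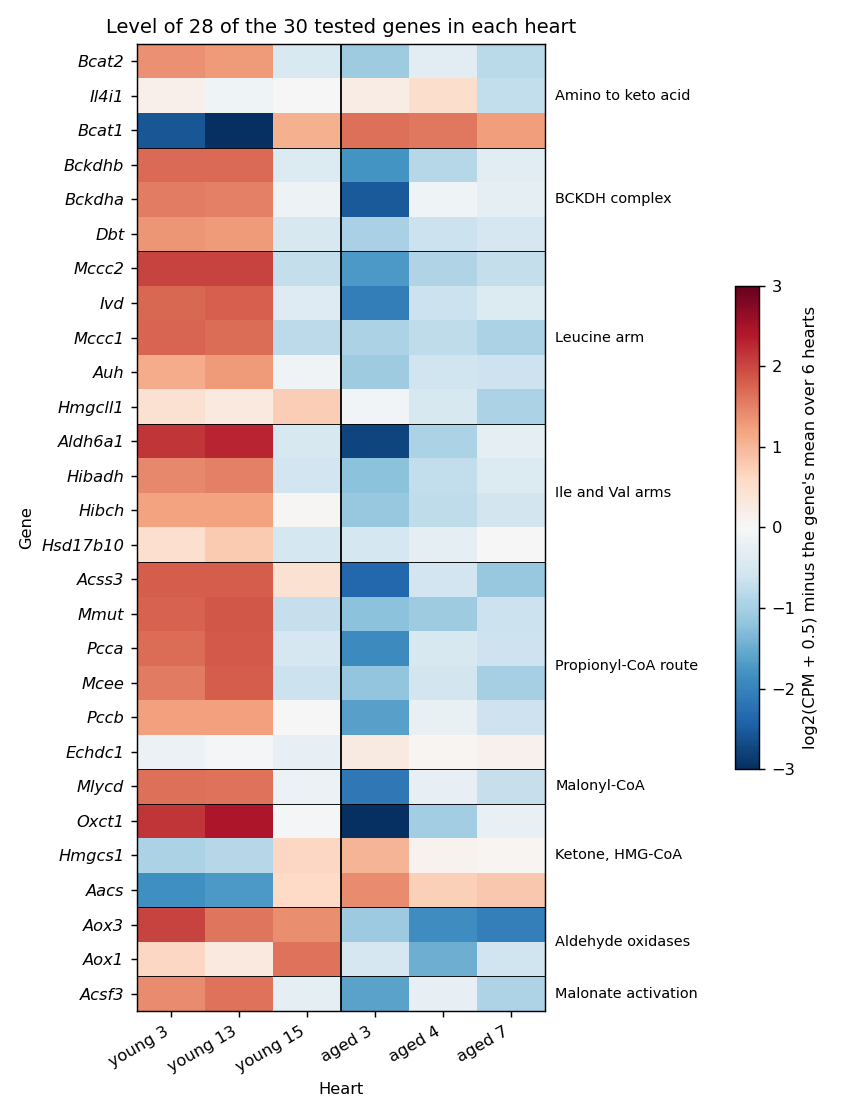
Level of 28 of the 30 tested genes (rows, grouped by step) in each of the 6 hearts (columns), as log2(CPM + 0.5) minus the gene's mean over the hearts, red for higher and blue for lower. Young hearts 3 and 13 lie above all 3 aged hearts for 23 of the 28 genes, and young heart 15 lies within the range of the aged hearts for 12. Of all 13784 tested genes, 4998 and 5710 do so.

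The 3 young hearts did not form one level. For all 23 genes called lower, young hearts 3 and 13 were above every aged heart. Young heart 15 was below both other young hearts in 21 of the 23 (the exceptions were Aox1 and Hmgcll1), within the range of the aged hearts in 11, and above all of them in 12. Aged heart 3 was the lowest of the 6 hearts in 19 of the 23. The 23 genes were picked by this same comparison, which favours such an order. Of all 13784 tested genes, young hearts 3 and 13 were above every aged heart in 4998. Young heart 15 was below both other young hearts in 6150, within the aged range in 5710 and above it in 4084. Aged heart 3 was the lowest in 3424. For 15 of the 30 tested genes, the young and aged values were fully separated, 12 with the aged hearts below and 3 with the aged hearts above, where 20.6% and 21.0% of all tested genes did so. Leaving out young heart 15 gave 24 lower and 3 higher of the 30 genes, with 24.2% and 26.9% of all genes called in those directions, and 26 breakdown genes then had an adjusted p under 0.05, as did 48.3% of all genes. In the 6 edgeR fits that each left out 1 heart, 16 of the 23 lower genes passed the limits every time. These fits share most hearts with the fit that picked the 23 genes, so a kept call is in part built in. The share kept among all called genes was not counted.

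The summed level of the 36 genes was 6348 and 7037 CPM in young hearts 3 and 13, 1781 CPM in young heart 15, and 859, 1388 and 1591 CPM in aged hearts 3, 4 and 7. Their order over the hearts was that of the cardiomyocyte markers, apart from aged hearts 4 and 7, which lay close together in the markers. The markers had the wider range. Per 1000 CPM of cardiomyocyte markers, the breakdown genes stood at 70.7, 71.0 and 147 CPM in the young hearts and at 1472, 199 and 228 CPM in the aged hearts. The marker sum is weighted to its highest genes, so this ratio does not measure cardiomyocyte content. Myh6 alone held 26873, 29955 and 1085 CPM in the young hearts. It held 13.6, 515 and 323 CPM in aged hearts 3, 4 and 7. The sums of the 36 genes include the members that were not lower. The 23 genes called lower, a list picked by this same comparison, held 6209, 6891 and 1470 CPM in the young hearts. They held 427, 1050 and 1297 CPM in aged hearts 3, 4 and 7. Oxct1 alone supplied 31.1% to 43.4% of the sum in the young hearts, and 6.84%, 19.8% and 30.6% in aged hearts 3, 4 and 7. Without Oxct1 the sum was 3842, 3980 and 1227 CPM in the young and 801, 1113 and 1103 CPM in the aged hearts.

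**Figure D2:**
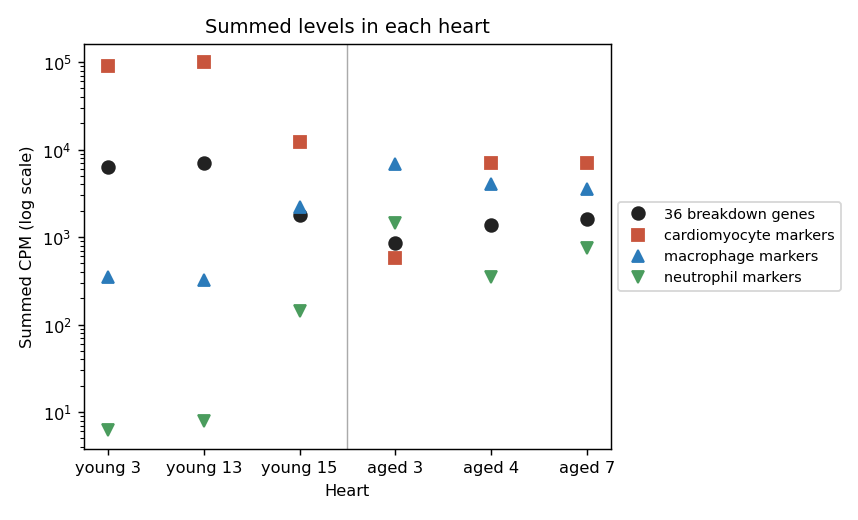
Summed CPM (vertical axis, log scale) of the 36 breakdown genes and of cardiomyocyte, macrophage and neutrophil markers in each heart (horizontal axis). The breakdown genes run from 859 to 7037 CPM and the cardiomyocyte markers from 584 to 99179 CPM, both lowest in aged heart 3.

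On the length-corrected FPKM scale, the breakdown gene with the highest level in young hearts was Oxct1, at 478 ± 261 FPKM (mean ± SD, n = 3), which exceeded the next gene by more than the SD of either. Aldh6a1 followed at 128 ± 77.7, Ivd at 116 ± 58.6 and Hibadh at 103 ± 49.3 FPKM, neighbours whose SDs overlapped. Subunits of the keto acid dehydrogenase complex came next, with Bckdhb at 79.6 ± 39.7 and Bckdha at 76.2 ± 29.7 FPKM, followed by Bcat2 at 74.1 ± 31.1 FPKM. In aged hearts Oxct1 was still highest, at 94.9 ± 73.9 FPKM, and Bcat1 came second at 67.7 ± 11.7 FPKM after standing at 16.8 ± 25.5 FPKM in young hearts, and the SDs of these genes overlapped. At the other end, 6 genes had too few reads for a test in these hearts. Lao1 (an L-amino acid oxidase) and Aox4 had 0 reads in every heart, Agxt2 and RGD1308564 had 0 to 1, Aox2 had 0 to 5, and Abat (4-aminobutyrate aminotransferase) had 0 to 9.

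At the step from amino acid to keto acid, 1 of 3 tested genes was lower, the transaminase Bcat2. Bcat2, the mitochondrial form (chr1:101554642-101572080, plus strand, as the table gives it), stood at 191, 180.3 and 54.1 CPM in young hearts 3, 13 and 15 and 35.1, 59.0 and 41.8 CPM in aged hearts 3, 4 and 7. Its mean was 142 ± 76.2 CPM in young and 45.3 ± 12.3 CPM in aged hearts (SD, n = 3 each), and it fell with a log2 fold change of -1.65 (SE 0.50, edgeR BH-adjusted p = 0.0959). Aged heart 4 lay above young heart 15, so the groups overlapped, and without aged heart 3 or aged heart 7 the call was lost (log2 fold changes of -2.0 to -1.37 over the 6 fits). Bcat1, the cytosolic form (chr4:179259308-179339795, minus strand), had more reads in the aged hearts, with 140, 98 and 2717 reads in young hearts 3, 13 and 15 and 5121, 4190 and 3304 reads in aged hearts 3, 4 and 7. Those reads correspond to 8.47, 6.23 and 112 CPM in the young hearts and 168, 159 and 127 CPM in the aged hearts, so that all 3 aged hearts lay above the young ones and young heart 15 lay close below them. The log2 fold change of 1.83 (SE 1.09, edgeR BH-adjusted p = 0.257) did not pass. Without young heart 15 it was 4.40 with an adjusted p of 0.000999 in the same edgeR test. With all 6 hearts, limma-voom with quality weights, in which hearts count unequally, gave 4.15 and called Bcat1 higher (BH-adjusted p = 0.000433). DESeq2 gave 1.83 and did not call it. Il4i1, a secreted amino acid oxidase, was low in every heart, at 5.20, 4.20 and 4.63 CPM in the young hearts and 5.48, 6.94 and 2.57 CPM in the aged hearts, and its log2 fold change of 0.10 (SE 0.400, edgeR BH-adjusted p = 0.875) did not pass.

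All 3 subunits of the branched-chain keto acid dehydrogenase complex in the list were lower in aged hearts. The decarboxylase subunit Bckdhb stood at 203, 205 and 46.5 CPM in the young hearts and 17.7, 34.3 and 49.1 CPM in the aged hearts. Its level fell, with a log2 fold change of -2.17 (SE 0.647, edgeR BH-adjusted p = 0.0946). The acyltransferase core Dbt stood at 169, 165 and 48.5 CPM in the young hearts and 34.4, 43.1 and 47.9 CPM in the aged hearts. Aged hearts were lower, with a log2 fold change of -1.61 (SE 0.480, edgeR BH-adjusted p = 0.0945), and every aged heart was below every young heart, young heart 15 by a small margin. The partner decarboxylase subunit Bckdha stood at 237, 233 and 73.3 CPM in the young hearts and 13.7, 74 and 67.1 CPM in the aged hearts, with a log2 fold change of -1.81 (SE 0.726, edgeR BH-adjusted p = 0.137). That call was the least stable of the 23, since it was kept only without young heart 15 among the 6 fits that left out a heart (log2 fold changes of -2.16 to -1.35 over the 6 fits), and with the cardiomyocyte covariate its log2 fold change turned to 0.25 (edgeR BH-adjusted p = 0.862). Aged heart 3 carried far less Bckdha than aged hearts 4 and 7, while its Dbt was nearer to theirs.

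In the leucine arm 5 of 6 tested genes were lower. Isovaleryl-CoA dehydrogenase, Ivd, stood at 419, 437 and 95.7 CPM in the young hearts and 29.7, 79.9 and 94.9 CPM in the aged hearts. It declined, with a log2 fold change of -2.22 (SE 0.692, edgeR BH-adjusted p = 0.0980). The alpha subunit of methylcrotonyl-CoA carboxylase, Mccc1, stood at 99.4, 95.5 and 16.9 CPM in the young hearts and 14.9, 17.2 and 15.0 CPM in the aged hearts. Its level in young heart 15 was thus inside the range of the aged hearts, and it fell with a log2 fold change of -2.17 (SE 0.630, edgeR BH-adjusted p = 0.0927). The beta subunit, Mccc2, stood at 250.04, 250.3 and 37.3 CPM in the young hearts and 18.3, 32.5 and 37.1 CPM in the aged hearts. The comparison gave a fall, with a log2 fold change of -2.61 (SE 0.729, edgeR BH-adjusted p = 0.0923), its lowest young heart only just above its highest aged heart. Auh, the hydratase of the following step, stood at 77.6, 87.2 and 33.1 CPM in the young hearts and 16.7, 23.2 and 23.1 CPM in the aged hearts. It was lower in aged hearts, with a log2 fold change of -1.65 (SE 0.386, edgeR BH-adjusted p = 0.0916), the smallest p of this arm, with no overlap between the groups. Hmgcll1, a lyase at the end of this arm, rested on 5 to 42 reads a heart and was called lower with a log2 fold change of -1.57, a call lost without young heart 3, young heart 15, aged heart 4 or aged heart 7 (log2 fold changes of -2.10 to -1.20 over the 6 fits).

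In the valine and isoleucine arms 3 of 4 tested genes were lower. Hibch, which frees 3-hydroxyisobutyrate from CoA in the valine arm, stood at 66.8, 66.7 and 29.3 CPM in the young hearts and 12.8, 16.8 and 19.3 CPM in the aged hearts. It fell with a log2 fold change of -1.73 (SE 0.364, edgeR BH-adjusted p = 0.0916), and every aged heart was below every young heart. Hibadh, the following dehydrogenase, stood at 299.9, 314 and 74.7 CPM in the young hearts and 47.1, 66.0 and 82.9 CPM in the aged hearts. Its level fell, with a log2 fold change of -1.81 (SE 0.561, edgeR BH-adjusted p = 0.0976), and the call was lost without aged heart 3 or aged heart 4 (log2 fold changes of -2.19 to -1.52 over the 6 fits). Aldh6a1, the methylmalonate semialdehyde dehydrogenase that makes propionyl-CoA, stood at 722, 795 and 117 CPM in the young hearts and 23.9, 85.0 and 137 CPM in the aged hearts. Aged hearts were lower, with a log2 fold change of -2.74 (SE 0.900, edgeR BH-adjusted p = 0.104), while aged heart 7 exceeded young heart 15. Without young heart 13 or aged heart 4 that call was lost (log2 fold changes of -3.31 to -2.29 over the 6 fits). Hsd17b10, an isoleucine arm dehydrogenase, had only 10 to 28 reads a heart and did not pass in edgeR with 6 hearts, with a log2 fold change of -0.91. It passed as lower in edgeR without young heart 15, at -1.3, and in limma-voom with all 6 hearts, at -1.13.

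From propionyl-CoA to succinyl-CoA, 5 of 6 tested genes were lower. Pcca, the biotin-carrying subunit of propionyl-CoA carboxylase, stood at 136, 154 and 29.7 CPM in the young hearts and 11, 30.3 and 27.2 CPM in the aged hearts. It declined, with a log2 fold change of -2.22 (SE 0.683, edgeR BH-adjusted p = 0.0973). Its partner Pccb stood at 182, 183 and 78.2 CPM in the young hearts and 25, 67.2 and 50.3 CPM in the aged hearts. The comparison gave a fall, with a log2 fold change of -1.64 (SE 0.479, edgeR BH-adjusted p = 0.0933). The epimerase Mcee stood at 35.1, 42.2 and 7.31 CPM in the young hearts and 4.80, 7.81 and 5.56 CPM in the aged hearts. It was lower in aged hearts, with a log2 fold change of -2.22 (SE 0.638, edgeR BH-adjusted p = 0.0927), and young heart 15 sat within the aged range as it did for Pcca. Methylmalonyl-CoA mutase, Mmut, which needs a vitamin B12 cofactor, stood at 188, 199 and 33.7 CPM in the young hearts and 23.2, 25.9 and 34.9 CPM in the aged hearts. It fell with a log2 fold change of -2.33 (SE 0.648, edgeR BH-adjusted p = 0.0923). Acss3, a mitochondrial acyl-CoA synthetase that activates propionate, was counted in 169, 160 and 89 reads in the young hearts and in 3, 41 and 23 reads in the aged hearts. Its level fell, with a log2 fold change of -3.25 (SE 0.907, edgeR BH-adjusted p = 0.0923), with no overlap, and the aged heart 3 value was at the limit of 3 reads. Echdc1, which removes ethylmalonyl-CoA, did not pass, at 15.7, 17.0 and 14.8 CPM in the young hearts and 21.4, 18.3 and 19.5 CPM in the aged hearts and a log2 fold change of 0.32 (edgeR BH-adjusted p = 0.231). With library totals in place of TMM, it passed as higher at 0.78.

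Mlycd and Acsf3 were also lower. Mlycd, the malonyl-CoA decarboxylase, stood at 243, 239.7 and 68.8 CPM in the young hearts and 17.0, 65.1 and 47.6 CPM in the aged hearts. Aged hearts were lower, with a log2 fold change of -2.09 (SE 0.658, edgeR BH-adjusted p = 0.0985), without overlap. Acsf3, which activates malonate in mitochondria, stood at 110.4, 129 and 33.5 CPM in the young hearts and 13.2, 34.6 and 21.5 CPM in the aged hearts. It declined, with a log2 fold change of -1.98 (SE 0.582, edgeR BH-adjusted p = 0.0939), and aged heart 4 lay just above young heart 15.

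**Figure D3:**
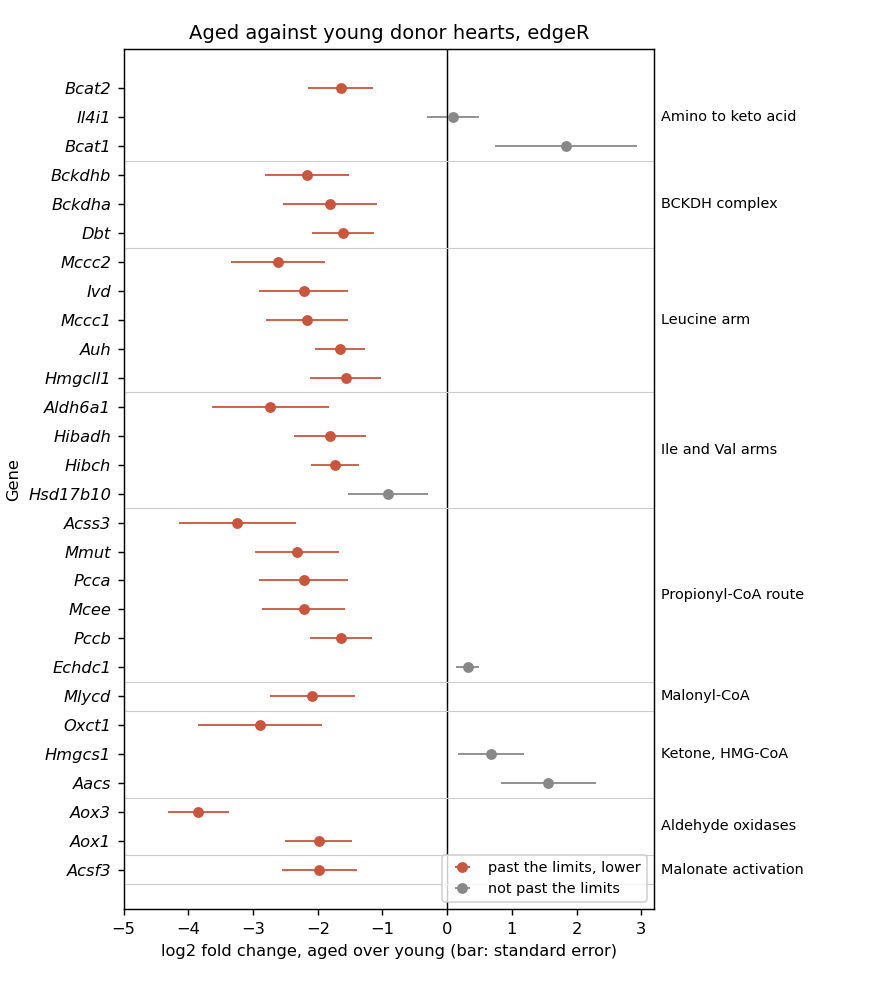
Log2 fold change of aged over young donor hearts from edgeR (horizontal axis, bars are standard errors) for 28 of the 30 tested genes, grouped by step. The 22 genes past the limits (red) lie between -3.85 and -1.57, and the 6 others (grey) between -0.91 and 1.83.

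Of the ketone body enzymes, Oxct1 was lower, while the cytosolic enzymes Hmgcs1 and Aacs did not pass in edgeR. Oxct1, the mitochondrial transferase that starts ketone body oxidation (chr2:53859737-54007756, plus strand), stood at 2507, 3057 and 554 CPM in young hearts 3, 13 and 15 and 58.8, 275 and 487 CPM in aged hearts 3, 4 and 7. Its mean was 2039 ± 1315 CPM in young and 274 ± 214 CPM in aged hearts (SD, n = 3 each), and it fell with a log2 fold change of -2.90 (SE 0.956, edgeR BH-adjusted p = 0.104). The groups did not overlap, although aged heart 7 came near young heart 15, and the call was lost without young heart 13 or aged heart 4 (log2 fold changes of -3.60 to -2.41 over the 6 fits). Hmgcs1, the cytosolic synthase of the cholesterol route, stood at 40.4, 43.2 and 119.98 CPM in the young hearts and 160.3, 83.6 and 81.3 CPM in the aged hearts. Its log2 fold change of 0.67 (SE 0.515, edgeR BH-adjusted p = 0.362) did not pass, with young heart 15 inside the aged range. Aacs, which activates acetoacetate in the cytosol for lipid synthesis, stood at 4.23, 4.64 and 25 CPM in the young hearts and 44.6, 27.1 and 29.0 CPM in the aged hearts. All 3 aged hearts were above the young hearts, and the log2 fold change of 1.56 (SE 0.733, edgeR BH-adjusted p = 0.177) did not pass. Without young heart 15, both Hmgcs1 (1.41, BH-adjusted p = 0.0206 in edgeR) and Aacs (2.96, BH-adjusted p = 0.00166) were called higher. The 3 genes higher in that fit were Bcat1, Hmgcs1 and Aacs. With all 6 hearts, limma-voom called Hmgcs1 (1.11, BH-adjusted p = 0.00571) and Aacs (2.74, BH-adjusted p = 0.000433) higher, and DESeq2 called Aacs higher at 1.56.

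The aldehyde oxidases, assigned to valine degradation but acting on many substrates, were lower in 2 of 2 tested. Aox3 stood at 17.6, 13 and 11.2 CPM in the young hearts and 1.58, 0.720 and 0.575 CPM in the aged hearts. The comparison gave a fall, with a log2 fold change of -3.85 (SE 0.473, edgeR BH-adjusted p = 0.0916), the largest fall and the smallest p of the 30 genes. Here young heart 15 was close to the other young hearts and far above the aged ones. Aox1 stood at 6.59, 5.15 and 13.8 CPM in the young hearts and 2.76, 1.18 and 2.53 CPM in the aged hearts. It was lower in aged hearts, with a log2 fold change of -1.98 (SE 0.519, edgeR BH-adjusted p = 0.0916), and young heart 15 was the highest of all. Both calls held in each of the 6 fits that left out a heart. With the cardiomyocyte covariate they held by unadjusted p, at log2 fold changes of -4.70 for Aox3 and -2.84 for Aox1. The edgeR BH-adjusted p was 0.854 for both in that fit. Aox1 (chr9:64929721-65007870) and Aox3 (chr9:65013862-65099433) are adjacent, similar genes on the same strand, so reads may be shared between them and each value is uncertain to that extent. Both were low, Aox1 at 1.61 ± 1.24 FPKM and Aox3 at 1.78 ± 0.308 FPKM in young hearts.

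**Figure D4:**
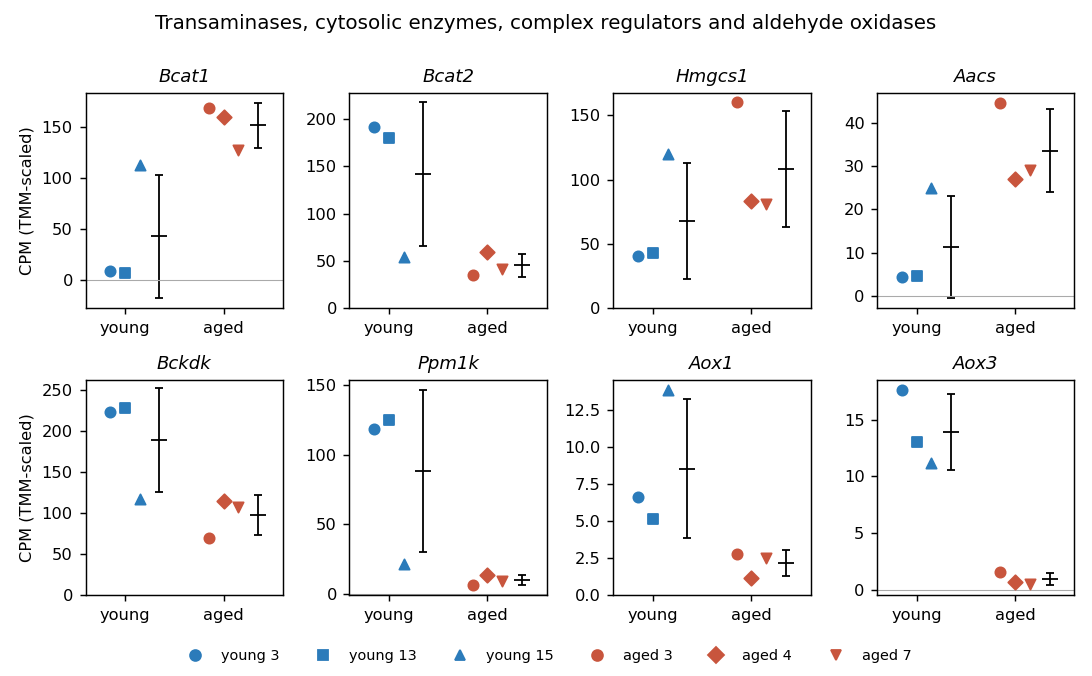
TMM-scaled CPM (vertical axes) of Bcat1, Bcat2, Hmgcs1, Aacs, Bckdk, Ppm1k, Aox1 and Aox3 in each young (blue) and aged (red) heart, with one marker shape per heart and black bars for the mean ± SD (n = 3). Bcat1 in young heart 15 (112 CPM) sits near the aged hearts (127 to 168 CPM), whereas Aox3 in young heart 15 (11.2 CPM) sits with the young hearts.

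Ratios within a heart hardly depend on library scaling and were compared for 7 pairs, 6 of them given here, by a two-sided exact permutation test, in which 3 against 3 hearts cannot go below p = 0.1. The log2 ratio of Bcat1 to Bcat2 was -4.48, -4.84 and 1.05 in young hearts 3, 13 and 15 and 2.26, 1.43 and 1.6 in aged hearts 3, 4 and 7. The aged mean was higher by 4.52 (SE 1.92, exact permutation p = 0.1, BH-adjusted over 7 pairs p = 0.35), with every aged heart above every young heart. After adjustment over the 7 pairs no exact permutation p was below 0.35. For the ratios between subunits of one complex, the young and aged hearts overlapped. Bckdha over Bckdhb differed by 0.04 (SE 0.454, exact permutation p = 1), with the aged hearts spread from -0.37 to 1.11. Mccc1 over Mccc2 differed by 0.45 (SE 0.304, exact permutation p = 0.2) and Pcca over Pccb by -0.38 (SE 0.368, exact permutation p = 0.4). Dbt over Bckdha differed by 0.55 (SE 0.659, exact permutation p = 0.7), and aged heart 3 alone was high, at 1.32 against -0.78 to -0.49 in the other 5 hearts. Without it the difference was -0.11.

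Of 28 listed regulators, transporters, cofactor enzymes and partner enzymes that serve these steps, all were tested, 15 were lower and 4 higher. With the cardiomyocyte covariate in the edgeR model, 0 of these 19 calls were kept and none turned direction. Of all tested genes, 2.76% were called lower and 2.34% higher in that fit, against 19.0% and 13.2% without the covariate. Ppm1k stood at -1.70, Klf15 at -1.45, Slc3a2 at 0.94 and Slc43a2 at 1.26 with it. Without the covariate, the regulators were lower in 3 of 3. Ppm1k, the phosphatase that switches the keto acid dehydrogenase complex on, stood at 119, 125 and 21.5 CPM in the young hearts and 6.73, 13.9 and 9.31 CPM in the aged hearts. It fell with a log2 fold change of -3.15 (SE 0.697, edgeR BH-adjusted p = 0.0916). Bckdk, the kinase that switches the complex off, stood at 224, 228 and 117 CPM in the young hearts and 69.6, 115 and 108 CPM in the aged hearts. Its level fell, with a log2 fold change of -0.96 (SE 0.341, edgeR BH-adjusted p = 0.115), and its call was lost without young heart 3, young heart 13, aged heart 3 or aged heart 7 (log2 fold changes of -1.17 to -0.76 over the 6 fits). The log2 ratio of kinase to phosphatase was 0.92, 0.87 and 2.44 in the young and 3.35, 3.04 and 3.52 in the aged hearts. This was a difference of 1.90 (SE 0.534, exact permutation p = 0.1, BH-adjusted over 7 pairs p = 0.35), without overlap. Klf15, a transcription factor known to drive amino acid catabolic genes in muscle, stood at 116, 113 and 13 CPM in the young hearts and 1.25, 8.72 and 3.64 CPM in the aged hearts. Aged hearts were lower, with a log2 fold change of -4.15 (SE 1.06, edgeR BH-adjusted p = 0.0916).

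Among transporters of the amino and keto acids, 0 of 6 were lower and 3 were higher in edgeR. Slc3a2, the heavy chain that carries large neutral amino acid transporters to the membrane, stood at 67.9, 62.9 and 147 CPM in the young hearts and 252, 236 and 239.6 CPM in the aged hearts. It rose with a log2 fold change of 1.39 (SE 0.368, edgeR BH-adjusted p = 0.0916). Slc43a2, a facilitated transporter of the same amino acids, stood at 11.5, 11.3 and 51.0 CPM in the young hearts and 153, 105 and 100.4 CPM in the aged hearts. It rose with a log2 fold change of 2.28 (SE 0.657, edgeR BH-adjusted p = 0.0927). Slc7a8, a light chain that pairs with Slc3a2, stood at 18.9, 13 and 79.3 CPM in the young hearts and 196, 101 and 92.2 CPM in the aged hearts and had a log2 fold change of 1.81 (SE 0.737, edgeR BH-adjusted p = 0.141), a call kept only without young heart 15 among the 6 fits that left out a heart (log2 fold changes of 1.39 to 3.06 over the 6 fits). Slc7a5, the other light chain, did not pass in edgeR with 6 hearts, at 12.4, 14.8 and 91.4 CPM in the young hearts and 91.3, 145 and 165 CPM in the aged hearts and a log2 fold change of 1.76, and passed without young heart 15 at 3.34. With all 6 hearts, it passed as higher in DESeq2 at 1.75 and in limma-voom at 3.37. In all 4 genes young heart 15 was far above the other young hearts. Slc25a44, the mitochondrial carrier of branched-chain amino acids, varied little, at 13.8, 17.7 and 18.6 CPM in the young hearts and 15.6, 18.6 and 16.9 CPM in the aged hearts with a log2 fold change of 0.03 (edgeR BH-adjusted p = 0.932). Slc43a1 had a log2 fold change of -0.62 and did not pass in edgeR, and passed as lower without young heart 15 at -0.87 and in limma-voom with all 6 hearts at -1.02. These transporters are used by many cell types, and the summed macrophage and neutrophil markers were higher in the same hearts, as given above. The part of those cells in this result was not tested.

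**Figure D5:**
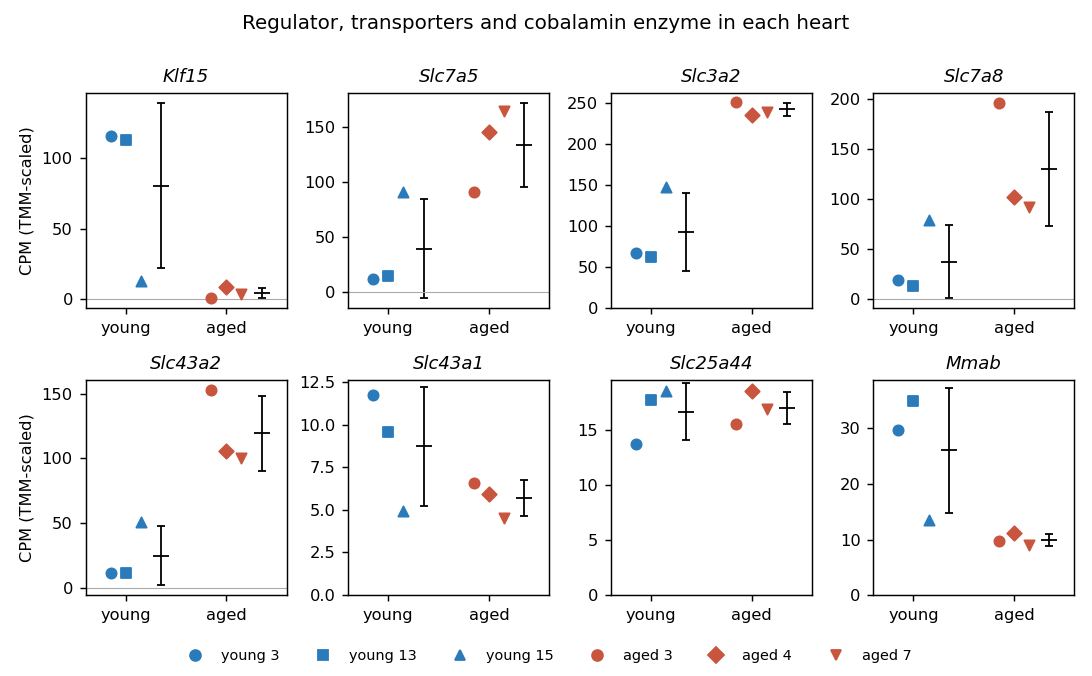
TMM-scaled CPM (vertical axes) of Klf15, 6 transporter genes and Mmab in each young (blue) and aged (red) heart, with one marker shape per heart and black bars for the mean ± SD (n = 3). Slc3a2 runs from 62.9 to 147 CPM in young and from 236 to 252 CPM in aged hearts, and Klf15 from 13 to 116 CPM and from 1.25 to 8.72 CPM.

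Genes that prepare vitamin B12 for methylmalonyl-CoA mutase were lower in 5 of 8 and higher in 1. Mmachc, which processes the incoming vitamin, stood at 52.6, 54.7 and 18.6 CPM in the young hearts and 8.34, 15.9 and 15.2 CPM in the aged hearts. It declined, with a log2 fold change of -1.67 (SE 0.474, edgeR BH-adjusted p = 0.0924). Mmab, which makes the adenosyl form, stood at 29.7, 34.9 and 13.4 CPM in the young hearts and 9.66, 11.1 and 8.97 CPM in the aged hearts. The comparison gave a fall, with a log2 fold change of -1.39 (SE 0.373, edgeR BH-adjusted p = 0.0919). Mmadhc (-1.20), Mmaa (-1.07) and the receptor Cd320 (-1.07, log2 fold changes) were also called lower. The lysosomal exporter Lmbrd1 was called higher, at 0.63. The calls of Mmaa, Cd320 and Lmbrd1 were each lost in 4 of the 6 fits that left out a heart (log2 fold changes of -1.28 to -0.83, -1.48 to -0.87 and 0.52 to 0.82), and all 3 were lost without young heart 3, young heart 13 or aged heart 3. Of 5 biotin and lipoate genes, 1 was lower, the lipoate synthase Lias (-1.80), whose product is a cofactor of Dbt. All 6 partner enzymes were lower, namely Etfb, Acat1, Etfdh, Dld, Etfa and Bdh1, with log2 fold changes from -2.34 to -1.51. Among them, Acat1 kept its call only without young heart 15, and Etfa only without young heart 15 or aged heart 4 (log2 fold changes of -2.72 to -1.87 and -2.18 to -1.49 over the 6 fits).

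Other genes of both pathways were left out by the rule because fatty acid or central carbon metabolism shares them. Of these 30 genes, 28 were tested, 19 were lower and 0 higher, with a median log2 fold change of -1.79 and a range from -5.10 to 0.58, against 23 of 30 and -1.90 in the breakdown genes. Acss1, the mitochondrial acetyl-CoA synthetase, had the largest fall of the genes left out. Dld and Acat1 are in this group and among the partner enzymes above. No difference between these lists was tested. Of all tested genes, 19.0% were called lower and 13.2% higher. Within the 36 genes, those assigned to both pathways were lower in 9 of 9 tested (median -2.17), those in amino acid degradation in 21 of 27 (median -1.81) and those in propanoate metabolism in 11 of 12 (median -2.13), where the lists share genes.

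Promoter windows from RefSeq (assembly GRCr8, 250 bases before to 50 after the gene start) were found for 28 of the 36 genes and searched on both strands for short motifs of factors known to regulate mitochondrial and sterol genes. The full ERR element (TCAAGGTCA) was in 0 of the 28 genes, against 0.441% of all genes with a window. The shorter ERR core (AAGGTCA), which the full element contains, was in 1 of 28 (3.57%), Mcee, against 4.83% of all genes. The NRF1 element was in 0, against 0.954%. The sterol regulatory element (TCACNCCAC) was in 3 of 28 (10.7%), Ivd, Mccc1 and Echdc1, against 1.25%. Ivd and Mccc1 were lower in aged hearts and Echdc1 did not pass. A match is a description of letters and does not show binding. The matched stretches are shown in the direction of the gene, with the motif in capitals, at chr1:127376183-127376207 (plus strand) for Mcee, chr3:126305534-126305560 (plus) for Ivd, chr2:120779400-120779426 (minus) for Mccc1 and chr1:30335461-30335487 (minus) for Echdc1. For Ivd and Echdc1 the motif reads on the opposite strand, so its reverse complement is in capitals.
Mcee: acggaaaagAAGGTCAccctatgcg
Ivd: gattggctgGTGGAGTGAaagctgtag
Mccc1: cctcacagtTCACCCCACccccaggca
Echdc1: cccagccatGTGGCGTGAttggggagg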

How the data were processed

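RNA-Seq of polyadenylated RNA (Illumina, paired reads) was available for 3 young and 3 aged donor hearts. The authors deposited 1 table with a raw read count and an FPKM value per gene and heart. The deposited counts carried no normalization, and the deposited FPKM values were the count over gene length and library total, checked on 133500 values with 1 exception beyond 0.1%. The deposited gene length, another column, was used as given. The submitters' processing notes name HISAT2 2.0.5, featureCounts 1.5.0-p3, StringTie 1.3.3b, DESeq2 1.16.1, GATK 3.7 and Rnor_6.0, without roles. The use of strand was not given in the sources used here, so reads of overlapping or near-identical genes are uncertain.

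Counts were analysed with edgeR 4.0.16 in R 4.3.3 (filterByExpr, TMM, glmQLFit and glmQLFTest, all 13784 tested genes, 6 hearts, no covariate). Limits were those of the study, a fold change below 0.67 or above 1.5 with an unadjusted p under 0.05, beside Benjamini-Hochberg adjusted p. SE is the log2 fold change over the root of F. Log2 CPM ratios used a prior count of 2 and an exact permutation test (scipy 1.17.1). Alternatives used limma 3.58.1 and DESeq2 1.42.0. The steps were tested on simulated data with 200 changed genes, the same dispersion for every gene and no outlying heart. That simulation does not speak for the spread between the hearts here. The members, lists and roles were chosen with earlier results of these data known. Of the members, 2 are counted and not reported by name. All others were named, and full statistics were given for up to 3 tested members per role with the smallest p and for the core steps, with other members and related genes added for completeness. At these depths 3 reads correspond to 0.122 to 0.14 CPM before TMM scaling, which covers counting error only. The edgeR p-values set the difference between the groups against the spread between hearts within each group. The exact permutation p-values set it against the differences from all regroupings of the 6 hearts. Sequences came from RefSeq promoter windows of GRCr8, matched by symbol, and coordinates of genes are those of the table, which names no build.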

Additional observations from a re-analysis of the deposited data

How the results depend on the processing

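The count of lower genes stayed between 21 and 25 under other scalings, filters and tools, against 23 as reported. The share of all genes called lower ran from 10.5% with library totals to 27.7% with limma-voom over these settings. The count was 3 with the cardiomyocyte covariate, where 2.76% of all genes were called lower and 2.34% higher. It was 0 with a BH-adjusted edgeR p under 0.05. When each heart was left out in turn it was 18 to 24, with 11.5% to 24.2% of all genes called lower. The covariate shares much of its variation with donor group, so the parts of each cannot be told apart in 6 hearts. The count of higher genes, 0 as reported, was 1 with library totals, 1 with DESeq2's Wald test and 3 with limma-voom. It was 0 to 3 when leaving out a heart, with 3 reached only without young heart 15. Of all genes, 22.8% were called higher with library totals, 15.6% with DESeq2 and 26.8% with limma-voom. When leaving out a heart, 5.83% to 26.9% were. The median log2 fold change was -1.35 with library totals, where the median of all genes moved to 0.46 and 25 of 30 genes stayed below it, and the share of all genes called lower was 10.5% against 22.8% called higher. It was -0.55 with the covariate and -2.17 to -1.59 when leaving out a heart. Directions turned for Bckdha (0.25), Hmgcs1 (-0.48), Hsd17b10 (0.31) and Il4i1 (-0.014) with the covariate, for Il4i1 with limma-voom (-0.27) and without aged heart 4 (-0.21), and for Slc25a44 without young heart 3 (-0.096) or aged heart 4 (-0.034), within -0.096 to 0.15 when leaving out a heart. When leaving out a heart, the difference in log2 ratio ran from -0.32 to 0.42 for Bckdha over Bckdhb, the lowest without aged heart 4, and from -0.11 to 0.94 for Dbt over Bckdha, the lowest without aged heart 3. Beyond the fits named, the cause of these changes was not tested. Across the named genes and settings, 555 values kept direction and call, 94 lost the call, 17 gained it and 8 turned. The largest share of lost calls, 38, came with the covariate. No paired analysis was possible because the groups share only the number 3, which marks different donors. Hmgcll1 and Hsd17b10 rested on few reads, and the 6 untested genes had 0 to 9 reads a heart, where low expression and limited depth cannot be told apart.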
